A study of Mus musculus with 9 samples.

Results

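The chemokines and chemokine receptors were measured through 86 probe sets of the 45101 on each array. They were all the probe sets whose platform annotation gives a single symbol of a Ccl, Cxcl, Xcl or Cx3cl ligand or of a Ccr, Cxcr, Xcr, Cx3cr or Ackr receptor. They stood for 54 genes, 33 of them ligands (51 probe sets) and 21 receptors (35 probe sets). Another 4 probe sets, whose annotation joins such a symbol with further ones, were left out. The RNA came from homogenised whole right lung of C57/BL6 (BL6), FVB/N and SV129 mice. Hypoxic mice had spent 4 weeks at a lowered pressure of 50 kPa, and normoxic mice 4 weeks at the 85 kPa of Denver's altitude. Each strain had 2 hypoxic arrays and 1 normoxic array, 9 arrays in all, and the labels name no mutation or drug. They do not say that arrays of a group came from separate mice, so p-values measure the spread between these arrays, which may be technical.

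Chemokines are small secreted proteins that steer leukocytes along concentration gradients, and their receptors are G-protein-coupled receptors on the moving cell. The CXC ligands of the Cxcl1 and Cxcl2 kind draw neutrophils through Cxcr2, the CC ligands of the Ccl2 kind draw monocytes through Ccr2, and homeostatic ligands such as Cxcl12 hold and place cells through Cxcr4. Atypical receptors, named Ackr, bind chemokines without the usual signal and take them up or carry them. In lung, macrophages, airway and alveolar epithelium, endothelium and recruited leukocytes all make chemokines, and a whole-lung extract sums over these cells. In such an extract, fewer cells of a type and less RNA per cell cannot be told apart.

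Cxcl1 and Cxcl2, which differed between strains, lie beside Cxcl3, Cxcl5 and Cxcl15 in the mouse genome. The sequences upstream of 4 of these neighbours are shown because a motif of the NF-kappaB family, known for inducing Cxcl1 and Cxcl2, was found in some of them and not in others. RefSeq promoters (build GRCm38.p6) were found for 41 of the 54 genes. Each line holds the 250 bases before the start of transcription on the plus strand, 5′ to 3′, with the kappaB motif GGAATTTCC in capitals. The stretches are chr5:90890995-90891244 for Cxcl1, chr5:90903649-90903898 for Cxcl2, chr5:90785851-90786100 for Cxcl3 and chr5:90794284-90794533 for Cxcl15.
Cxcl1: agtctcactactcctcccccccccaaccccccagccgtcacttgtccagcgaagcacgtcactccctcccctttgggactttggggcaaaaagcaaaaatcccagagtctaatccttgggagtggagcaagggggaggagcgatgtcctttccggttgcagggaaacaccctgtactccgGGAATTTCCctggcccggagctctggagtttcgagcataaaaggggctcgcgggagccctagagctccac
Cxcl2: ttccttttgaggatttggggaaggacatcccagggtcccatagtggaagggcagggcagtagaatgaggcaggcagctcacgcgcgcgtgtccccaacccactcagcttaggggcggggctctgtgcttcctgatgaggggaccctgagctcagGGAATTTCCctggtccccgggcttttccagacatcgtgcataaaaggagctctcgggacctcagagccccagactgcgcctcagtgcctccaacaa
Cxcl3: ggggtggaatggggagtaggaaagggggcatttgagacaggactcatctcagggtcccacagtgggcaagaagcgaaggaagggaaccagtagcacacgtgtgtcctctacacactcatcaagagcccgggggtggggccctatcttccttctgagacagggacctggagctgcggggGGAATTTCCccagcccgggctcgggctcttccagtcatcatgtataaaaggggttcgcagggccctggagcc
Cxcl15: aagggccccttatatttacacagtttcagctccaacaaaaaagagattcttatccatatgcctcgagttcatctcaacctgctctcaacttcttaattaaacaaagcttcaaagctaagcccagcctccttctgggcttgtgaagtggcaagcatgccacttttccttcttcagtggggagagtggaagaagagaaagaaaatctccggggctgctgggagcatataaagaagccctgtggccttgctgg
The motif starts 70 bases before the start of Cxcl1, 96 before that of Cxcl2 and 72 before that of Cxcl3, and these letters are not in the window of Cxcl15. On either strand the motif was present in 94 of all 32851 promoters of this length (0.286%) and in 5 of the 41 here, Ccr3 and Cxcl10 being the others. The core ACGTG of hypoxia response elements was present in 6 of the 41 (Ackr4, Ccl1, Ccr6, Cxcl1, Cxcl3 and Xcr1) and in 16.6% of all promoters. The interferon response motif GAAANNGAA was present in 6 of the 41 (Ccl1, Ccl3, Ccr2, Cxcl9, Cxcl10 and Cxcl14) and in 7.13% of all. These are matches of letters and not measured binding.

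Signals were taken as log2(signal + 16) and quantile normalized, and levels below are on this log2 scale. A probe set's level is compared only with itself on other arrays. Alveolar type 2 markers stood at a mean of 13.64 to 14.02 over the 9 arrays, high in each, as the labelled tissue should show. Kidney markers (9 readable genes of 12) stood at a mean of 12.30 in hypoxic BL6 array 2 and 13.17 in normoxic FVB/N, and at 5.83 to 6.75 in the other 7. Skeletal muscle markers (Acta1, Ckm, Mylpf and Tnnt3) had a mean of 11.99 in normoxic FVB/N and of 6.43 to 7.44 elsewhere. Results are therefore also given without these 2 kidney-bearing arrays where a fit could be made, and the part of the foreign transcripts in the others was not tested.

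Of the 86 probe sets 61 were bright enough to be read, and 25 fell in the dimmest 40% of the array (a mean log2 level under 6.13) and were left untested. Olfactory and vomeronasal receptor genes, which lung should hardly express, had a 95th percentile of 6.02 over 80 probe sets, under that limit. Just above the limit lay Cx3cr1 (1450019_at, 6.18), Ccl2 (6.19) and Xcr1 (6.22), and just under it Xcl1 (5.79), Ccr1 (1419610_at, 5.66) and Cxcl9 (1456907_at, 5.60). So 40 genes had at least 1 readable probe set, 24 ligands and 16 receptors, and 14 had none. All 6 homeostatic and stromal ligands, both membrane-anchored ligands (Cx3cl1 and Cxcl16) and all 4 atypical receptors were readable. The ligands too dim to read were the neutrophil attractants Cxcl3 and Cxcl5, the interferon-induced Cxcl9 and Cxcl11, and Ccl1, Ccl7, Ccl20, Ccl24 and Xcl1. The receptors too dim to read were Ccr1l1, Ccr3, Ccr4, Ccr8 and Ccr10, among them receptors of eosinophils and of T cell subsets. A probe set that is dim in the mean can still be bright on 1 array, as the vertical lines in the plot of levels show.

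**Figure D1:**
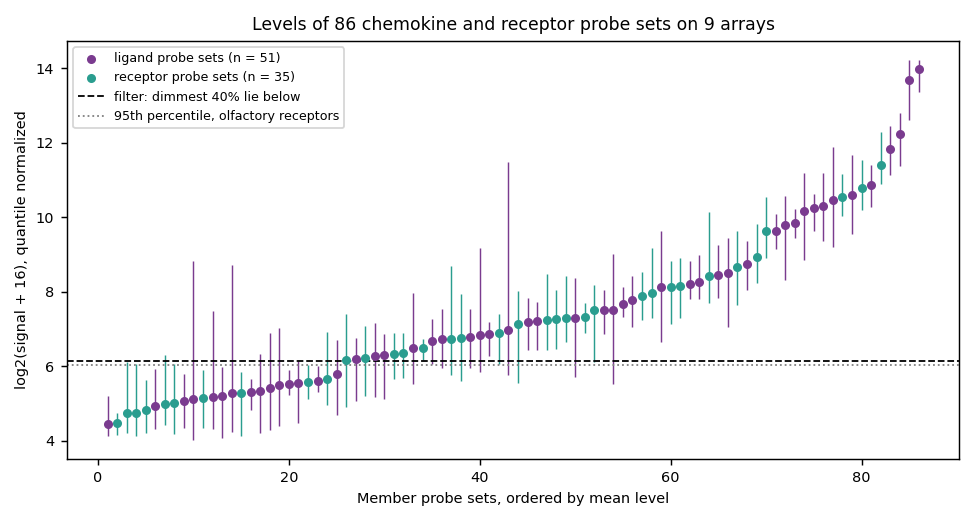
Mean log2 level (log2(signal + 16), quantile normalized) of each of the 86 probe sets over the 9 arrays, in order of mean level, ligands in purple and receptors in green, with vertical lines from the lowest to the highest array. 25 probe sets lie under the dashed limit of 6.13 and 61 above it; the dotted line is the 95th percentile of olfactory and vomeronasal receptors (6.02).

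Hypoxia was compared with normoxia over the 3 strains together, with strain in the model, 6 arrays against 3. The homeostatic ligand Cxcl12, the scavenging receptor Ackr2 and the lung epithelial ligand Cxcl15 rose, by 1.46-fold to 1.84-fold, and none of the 61 probe sets fell past the threshold of an adjusted p of 0.05. The call was made for 4 of 61 probe sets (6.56%; 3 genes), where 3.76% of all 27022 tested probe sets passed, 1.94% higher and 1.82% lower. Without adjustment 17 of the 61 had p under 0.05. How many of all tested had such a p was not counted, so this is not read as many or few. The median change over the 61 was -0.07, against 0.04 over all tested, and 27 of the 61 lay above 0.

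Cxcl12, also called SDF-1, is the stromal ligand of Cxcr4, known from fibroblasts and endothelium. Its probe set 1417574_at read 12.79 and 12.61 in hypoxic BL6, 12.27 and 12.25 in hypoxic FVB/N, 12.62 and 12.53 in hypoxic SV129, and 11.38, 11.98 and 11.83 in normoxic BL6, FVB/N and SV129. All 6 hypoxic arrays lay above all 3 normoxic ones. The hypoxic mean was 12.51 ± 0.213 (SD, n = 6) and the normoxic 11.73 ± 0.314 (SD, n = 3), a difference of 0.78 (SE 0.172, limma adjusted p = 0.0445) or 1.72-fold. It was larger without the 2 kidney-bearing arrays (0.94, adjusted p = 0.0436). The call held without normoxic FVB/N (1.03, 0.0125), and in none of the other 8 fits with 1 array left out (0.51 to 0.83, adjusted p 0.0609 to 0.168). The other Cxcl12 probe sets did not pass: 1448823_at differed by -0.10 (SE 0.259, limma adjusted p = 0.85) and 1439084_at by 1.03 (SE 0.514, limma adjusted p = 0.276). Endothelium and fibroblasts are among the cells known to make Cxcl12. Of 10 readable endothelial markers Emcn also rose, by 2.70-fold, and of 8 fibroblast and mesothelial markers Col1a1 rose, by 1.91-fold. The part of these cells in the result was not tested.

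The receptors of Cxcl12 did not pass. Cxcr4, its signalling receptor on leukocytes, read 10.49 and 10.77 in hypoxic BL6, 10.04 and 10.59 in hypoxic FVB/N, 10.65 and 10.18 in hypoxic SV129, and 11.04, 10.08 and 11.17 in normoxic BL6, FVB/N and SV129, and the groups overlapped (-0.31, SE 0.218, limma adjusted p = 0.441). Ackr3, which binds and clears Cxcl12, differed by -0.09 (SE 0.181, limma adjusted p = 0.803).

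Ackr2, formerly D6, takes up and degrades inflammatory CC chemokines and is known from lymphatic endothelium. Probe set 1422111_at read 8.53 and 8.85 in hypoxic BL6, 9.43 and 9.63 in hypoxic FVB/N, 8.71 and 8.64 in hypoxic SV129, and 8.19, 8.41 and 7.65 in normoxic BL6, FVB/N and SV129. Probe set 1422112_at read 9.44 and 9.55 in hypoxic BL6, 10.50 and 10.54 in hypoxic FVB/N, 9.85 and 9.56 in hypoxic SV129, and 8.91, 9.24 and 9.17 in normoxic BL6, FVB/N and SV129. In both, the conditions did not overlap and the hypoxic FVB/N arrays were the highest. The differences were 0.88 (SE 0.171, limma adjusted p = 0.0306), 1.84-fold, and 0.80 (SE 0.173, limma adjusted p = 0.0427), 1.74-fold. The third Ackr2 probe set, 1437937_at, was raised in hypoxic FVB/N (12.28 and 12.05) over the 10.90 to 11.49 of the other 7 and did not pass across strains, at 0.36 (SE 0.186, limma adjusted p = 0.287). Neither call held without the 2 kidney-bearing arrays (0.87, adjusted p = 0.0923 for 1422111_at and 0.58, adjusted p = 0.184 for 1422112_at). With single arrays left out, the call for 1422111_at held without hypoxic BL6 array 2 (0.96, 0.0424) or hypoxic SV129 array 2 (0.86, 0.0405), and in none of the other 7 fits (0.77 to 1.08, adjusted p 0.0535 to 0.148). That for 1422112_at held without hypoxic SV129 array 5 (0.86, 0.0476), and in none of the other 8 fits (0.56 to 0.93, adjusted p 0.0554 to 0.121). Lymphatic endothelial markers ran from a mean of 9.62 to 10.60 with none of the 5 readable ones past the threshold.

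Cxcl15, or lungkine, is a neutrophil attractant of lung epithelium. Its probe set 1456428_at read 14.24 and 14.12 in hypoxic BL6, 13.25 and 13.52 in hypoxic FVB/N, 14.13 and 14.04 in hypoxic SV129, and 13.61, 12.62 and 13.79 in normoxic BL6, FVB/N and SV129. Hypoxic arrays lay above the normoxic array of their own strain in 6 of 6 cases, although the conditions overlapped across strains. The difference was 0.54 (SE 0.112, limma adjusted p = 0.0371), 1.46-fold, against 0.26 (SE 0.100, limma adjusted p = 0.174) for the second probe set, 1421404_at. The call did not hold without the 2 kidney-bearing arrays (0.40, adjusted p = 0.161). The call held without hypoxic SV129 array 2 (0.55, 0.0466), and in none of the other 8 fits with 1 array left out (0.45 to 0.68, adjusted p 0.0504 to 0.146). None of 7 readable alveolar type 2 markers passed in this comparison, and of 8 airway markers the mucin Muc5b fell.

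**Figure D2:**
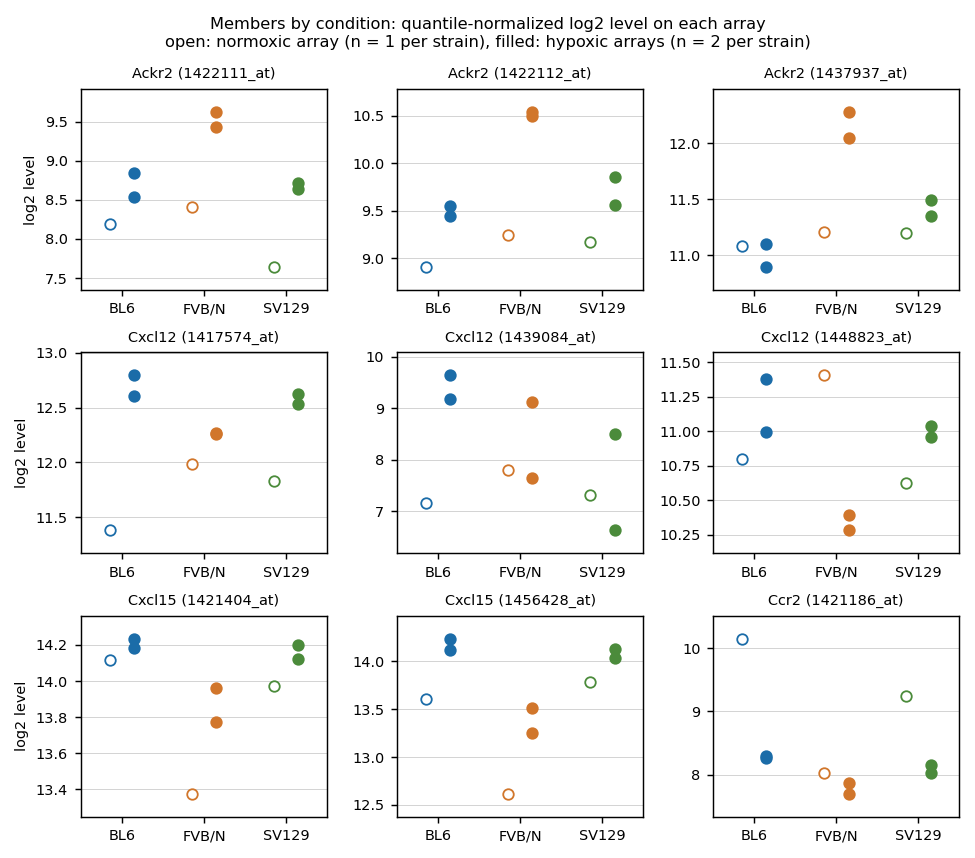
Quantile-normalized log2 level on each array (y axes differ between panels) by strain, open circles for the normoxic array and filled ones for the 2 hypoxic arrays of each strain, for the probe sets of Ackr2, Cxcl12 and Cxcl15 and 1 of Ccr2. In Cxcl12 1417574_at and in Ackr2 1422111_at and 1422112_at all 6 filled circles lie above all 3 open ones, while Cxcl12 1448823_at is highest in the open FVB/N circle (11.40).

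Ccr2, which brings inflammatory monocytes out of the marrow and into tissue, was lower in hypoxia by 1 probe set without passing. Its probe set 1421186_at read 8.27 and 8.29 in hypoxic BL6, 7.70 and 7.86 in hypoxic FVB/N, 8.16 and 8.03 in hypoxic SV129, and 10.14, 8.03 and 9.24 in normoxic BL6, FVB/N and SV129. Normoxic BL6 and SV129 stood far above every other array, and normoxic FVB/N lay among the hypoxic ones. The difference was -1.09 (SE 0.259, limma adjusted p = 0.0545). It passed without normoxic FVB/N (-1.50, adjusted p = 0.0125) and without the 2 kidney-bearing arrays (-1.45, adjusted p = 0.0466). The other Ccr2 probe sets did not all run the same way, with -0.71 for 1421188_at (adjusted p = 0.0855), 0.20 for 1421187_at (0.541) and -0.44 for 1460067_at (0.664).

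Cx3cl1 and Cx3cr1, an anchored ligand of endothelium and epithelium and its receptor on patrolling monocytes, did not pass either. Cx3cl1 (1415803_at) read 8.92 and 8.81 in hypoxic BL6, 8.58 and 8.31 in hypoxic FVB/N, 8.47 and 8.05 in hypoxic SV129, and 9.37, 9.03 and 9.10 in normoxic BL6, FVB/N and SV129, a difference of -0.64 (SE 0.162, limma adjusted p = 0.0628). Every hypoxic array lay below every normoxic one. Cx3cr1 (1450020_at) read 8.91 and 8.30 in hypoxic BL6, 8.30 and 8.15 in hypoxic FVB/N, 8.09 and 8.73 in hypoxic SV129, and 8.05, 7.45 and 7.30 in normoxic BL6, FVB/N and SV129, a difference of 0.81 (SE 0.217, limma adjusted p = 0.0726). Here every hypoxic array lay above every normoxic one. Without the kidney-bearing arrays the values were -0.72, adjusted p = 0.182, for Cx3cl1 and 0.74, adjusted p = 0.269, for Cx3cr1. In that fit the second readable probe set of each gene did not follow the first. Cx3cl1 1415804_at gave 0.11 (limma adjusted p = 0.917), opposite in sign, and Cx3cr1 1450019_at gave 0.11 (limma adjusted p = 0.901). The separation of the conditions thus rests on 1 probe set of each gene. Xcr1, the receptor of cross-presenting dendritic cells, read 7.07 and 6.68 in hypoxic BL6, 6.82 and 6.46 in hypoxic FVB/N, 6.29 and 5.71 in hypoxic SV129, and 6.30, 5.47 and 5.19 in normoxic BL6, FVB/N and SV129. It did not pass, and normoxic FVB/N, normoxic SV129 and 1 hypoxic SV129 array lay under the limit for reading. The lymph node homing receptor Ccr7 differed by 0.53 (SE 0.271, limma adjusted p = 0.288).

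Counted without the threshold, 11 of the 61 probe sets (18%) had all 6 hypoxic arrays above the normoxic array of their strain, as had 14.5% of all tested. Besides the called probe sets they were both of Cxcl16, the second of Cxcl15, and 1 each of Ackr4, Cx3cr1, Cxcl14 and Xcr1. All 6 lay below in 5 of 61 (8.2%), against 8.77% of all: 1 probe set each of Cx3cl1, Cxcl1 and Cxcl13 and 2 of Ccr2. Both shares are close to those of all probe sets.

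Strain was compared with condition in the model, 3 arrays a strain. Strain differed for 9 of the 61 probe sets (14.8%), in 7 genes, where 4.23% of all tested passed. By pairs of strains, Cxcl1 was lower in BL6 than in FVB/N and SV129, and Cxcl2 lower in BL6 than in SV129. Ccl5 and Ccr2 (by 2 of its 4 probe sets) were lower in SV129 than in both others. Cxcl15 was lower in FVB/N than in both others, Cxcl14 and Ccl6 lower in FVB/N than in SV129, and Cxcl17 lower in FVB/N than in BL6. Whether a probe set reads the transcripts of all 3 strains equally well was not tested, for these and all other strain differences given. BL6 and FVB/N differed for 3 probe sets, 2 higher in BL6 and 1 lower (2.07% of all tested passed, 1.52% higher and 0.548% lower). BL6 and SV129 differed for 6, 3 higher and 3 lower (2.51% of all; 1.35% and 1.16%). FVB/N and SV129 differed for 6, 3 higher in FVB/N and 3 lower (2.89% of all; 1.06% and 1.83%). These 3 comparisons share arrays. Unadjusted p was under 0.05 for 21, 18 and 21 of the 61, again without a count over all tested. Without the kidney-bearing arrays none of the 3 calls between BL6 and FVB/N held, and Cxcr2 (-2.16, adjusted p = 0.0331) and Ackr2 1437937_at (-0.99, adjusted p = 0.0446) passed, both lower in BL6.

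Cxcl1 (KC) is the mouse neutrophil attractant of epithelium, endothelium and macrophages whose kappaB motif is shown above. Values for each strain are given in the order of its 2 hypoxic arrays and its normoxic array. Probe set 1419209_at read 5.53, 6.03 and 6.30 in BL6, 8.11, 7.69 and 9.01 in FVB/N and 8.72, 7.31 and 8.95 in SV129. BL6 lay below every array of the other strains. The mean was 5.96 ± 0.391 in BL6, 8.27 ± 0.671 in FVB/N and 8.33 ± 0.891 in SV129 (SD, n = 3 each). The BL6 mean lay under the limit of 6.13 and under the 95th percentile of the olfactory receptors (6.02), so the folds are over a level near background. BL6 was 4.98-fold below FVB/N, at -2.32 (SE 0.357, limma adjusted p = 0.0103), and 5.17-fold below SV129, at -2.37 (SE 0.357, limma adjusted p = 0.0101). The call against SV129 held without the 2 kidney-bearing arrays (-2.29, adjusted p = 0.0348), and that against FVB/N did not (-2.08, adjusted p = 0.122). The SV129 call held in 8 of 9 fits with 1 array left out, and not without normoxic SV129 (-2.33, 0.0666). The FVB/N call held in 7 of 9 fits with 1 array left out, and not without hypoxic FVB/N array 2 (-2.24, 0.0581) or normoxic BL6 (-2.14, 0.069).

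The second Cxcl1 probe set, 1457644_s_at, read 7.91, 7.69 and 7.07 in BL6, 8.82, 8.38 and 9.44 in FVB/N and 9.18, 8.72 and 9.40 in SV129, again with BL6 lowest throughout. It passed against SV129 only, at -1.55 (SE 0.325, limma adjusted p = 0.0429), also without the 2 kidney-bearing arrays (-1.72, adjusted p = 0.0309), and gave -1.33 (SE 0.325, limma adjusted p = 0.0857) against FVB/N. The call held without normoxic FVB/N (-1.54, 0.0148), and in none of the other 8 fits with 1 array left out (-1.77 to -1.09, adjusted p 0.0504 to 0.181). The remaining probe set, 1441855_x_at, read 7.04, 7.08 and 7.85 in BL6, 7.90, 7.81 and 8.42 in FVB/N and 8.37, 7.25 and 8.32 in SV129 and passed in no pair.

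Cxcl2 (MIP-2) is the neighbouring ligand of the same receptor, Cxcr2. It read 5.90, 5.83 and 5.97 in BL6, 6.92, 5.85 and 6.55 in FVB/N and 9.18, 7.10 and 8.27 in SV129. SV129 lay above every other array, and BL6 lay below the limit for reading, so the fold is one over a level near background. BL6 was 4.86-fold below SV129, at -2.28 (SE 0.489, limma adjusted p = 0.0466), and without the 2 kidney-bearing arrays the call did not hold (-2.32, adjusted p = 0.107). The call held without hypoxic SV129 array 5 (-2.85, 0.0176) or normoxic FVB/N (-2.30, 0.0339), and in none of the other 7 fits with 1 array left out (-2.30 to -1.72, adjusted p 0.0615 to 0.195). Of 8 readable inducers of chemokine genes, the cytokine Il6 alone passed between strains. It was higher in SV129, 4.92-fold over BL6 (limma adjusted p = 0.00953) and 4.12-fold over FVB/N (adjusted p = 0.0143). The mean over 7 readable neutrophil markers was 8.12, 8.56 and 9.55 in SV129, 9.41, 9.41 and 9.87 in BL6 and 9.29, 10.00 and 10.61 in FVB/N. The part of NF-kappaB and of neutrophils in the Cxcl1 and Cxcl2 differences was not tested. Ccl3, made by activated macrophages, read 5.89, 5.70 and 6.04 in BL6, 6.26, 6.32 and 5.52 in FVB/N and 7.92, 6.74 and 7.96 in SV129, with SV129 above every other array but no pair past the threshold. The means of BL6 (5.88) and FVB/N (6.03) lay under the limit of 6.13, so Ccl3 was readable through SV129 and no size is given for the difference.

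Ccl5 (RANTES) is made by T and NK cells and draws T cells and monocytes. It read 10.02, 10.20 and 10.52 in BL6, 10.03, 10.59 and 10.17 in FVB/N and 8.64, 8.32 and 9.56 in SV129. All 3 SV129 arrays lay below all 6 others. BL6 was 2.65-fold above SV129, at 1.40 (SE 0.267, limma adjusted p = 0.0281), and FVB/N 2.68-fold, at 1.42 (SE 0.267, limma adjusted p = 0.0252). Without the kidney-bearing arrays both held (1.39, adjusted p = 0.0367, and 1.72, adjusted p = 0.0181). The BL6 call held without hypoxic FVB/N array 6 (1.41, 0.0236), normoxic FVB/N (1.40, 0.00713) or normoxic SV129 (1.72, 0.0277), and in none of the other 6 fits with 1 array left out (1.20 to 1.45, adjusted p 0.0526 to 0.155). The FVB/N call held without hypoxic BL6 array 2 (1.43, 0.0358), normoxic BL6 (1.43, 0.0398), normoxic FVB/N (1.71, 0.00786) or normoxic SV129 (1.74, 0.0236), and in none of the other 5 fits with 1 array left out (1.16 to 1.46, adjusted p 0.0584 to 0.0922). Of 12 readable T and NK cell markers, the cytotoxic granule genes Nkg7 and Prf1 were higher in FVB/N than in SV129 (2.98-fold and 2.15-fold), and none passed between BL6 and SV129. The part of these cells in the Ccl5 difference was not tested.

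Ccr2 was low in SV129 by 2 probe sets. Probe set 1421188_at read 7.42, 7.48 and 8.03 in BL6, 7.58, 7.42 and 7.92 in FVB/N and 5.90, 5.55 and 6.86 in SV129. Probe set 1421187_at read 8.82, 8.61 and 8.64 in BL6, 8.57, 8.44 and 7.98 in FVB/N and 7.13, 7.53 and 7.33 in SV129. All SV129 arrays lay below all others in both, and the SV129 mean of 1421188_at (6.10) lay under the limit of 6.13, so its folds are over a level near background. By 1421188_at, BL6 was 2.91-fold above SV129, at 1.54 (SE 0.233, limma adjusted p = 0.0103), and FVB/N 2.90-fold, at 1.54 (SE 0.233, limma adjusted p = 0.00901). By 1421187_at, BL6 was 2.57-fold above SV129, at 1.36 (SE 0.204, limma adjusted p = 0.00982), and FVB/N 2.00-fold, at 1.00 (SE 0.204, limma adjusted p = 0.0355). All 4 calls held without the 2 kidney-bearing arrays, at 1.52, adjusted p = 0.0357, and 1.71, adjusted p = 0.0248, for 1421188_at and 1.30, adjusted p = 0.0287, and 1.18, adjusted p = 0.0451, for 1421187_at. The FVB/N call for 1421188_at held in 9 of 9 fits with 1 array left out (1.36 to 1.75, adjusted p 0.012 to 0.0448). Its BL6 call held in 8 of 9 fits with 1 array left out, and not without hypoxic BL6 array 5 (1.49, 0.0724). The BL6 call for 1421187_at held in 8 of 9 fits with 1 array left out, and not without hypoxic BL6 array 5 (1.43, 0.05). Its FVB/N call held without normoxic FVB/N (1.16, 0.0249), and in none of the other 8 fits with 1 array left out (0.86 to 1.11, adjusted p 0.0542 to 0.125). The other Ccr2 probe sets, among them the brightest, 1421186_at, did not separate the strains. In BL6 minus SV129 they gave 0.42 (SE 0.299, limma adjusted p = 0.538) for 1421186_at and -0.39 (SE 0.603, limma adjusted p = 0.802) for 1460067_at. Cd209a, a marker of monocyte-derived dendritic cells and 1 of 6 readable dendritic cell markers, was lower in SV129 too (6.01-fold below BL6 and 6.87-fold below FVB/N). Of 8 readable markers of monocytes and interstitial macrophages, Nr4a1 alone passed against SV129, where it was higher (4.84-fold over BL6 and 4.04-fold over FVB/N). The part of these cells in the Ccr2 result was not tested.

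**Figure D3:**
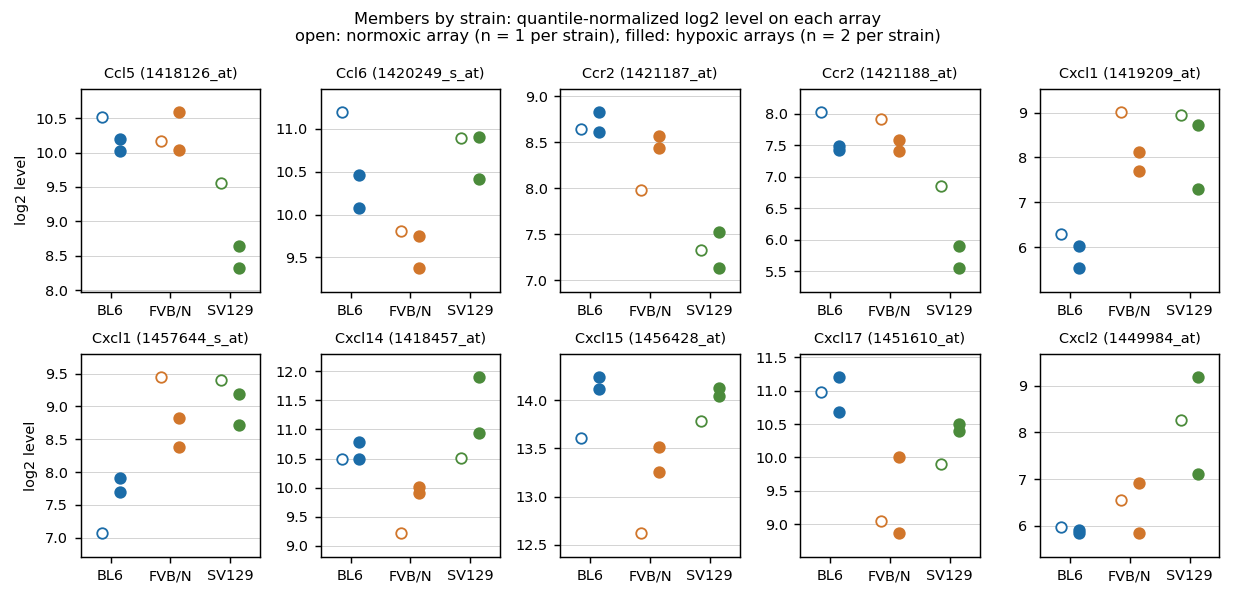
Quantile-normalized log2 level on each array by strain for the 10 probe sets that passed between strains (y axes differ between panels; open circles normoxic, filled circles hypoxic). BL6 is lowest in both Cxcl1 panels, SV129 is lowest in Ccl5 and both Ccr2 panels and highest in Cxcl2, and FVB/N is lowest in Cxcl15, Cxcl14 and Ccl6.

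FVB/N lay below all other arrays for 6 of the 61 probe sets (9.84%), against 3.62% of all tested: both probe sets each of Ccl6, Cxcl14 and Cxcl15. Cxcl15 1456428_at read 14.24, 14.12 and 13.61 in BL6, 13.25, 13.52 and 12.62 in FVB/N and 14.13, 14.04 and 13.79 in SV129. FVB/N was 1.81-fold lower than BL6, at 0.86 (SE 0.129, limma adjusted p = 0.00932) for BL6 minus FVB/N, and 1.81-fold lower than SV129, at -0.86 (SE 0.129, limma adjusted p = 0.00871). Without the kidney-bearing arrays the first did not hold (0.69, adjusted p = 0.0704) and the second did (-0.75, adjusted p = 0.0214). The BL6 call held in 7 of 9 fits with 1 array left out, and not without hypoxic BL6 array 5 (0.88, 0.0563) or hypoxic FVB/N array 2 (0.82, 0.0578). The SV129 call held in 8 of 9 fits with 1 array left out, and not without normoxic SV129 (-0.75, 0.0577).

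Cxcl14, a homeostatic epithelial and stromal ligand, read 10.49, 10.79 and 10.50 in BL6, 10.01, 9.91 and 9.22 in FVB/N and 11.89, 10.94 and 10.50 in SV129 (1418457_at). FVB/N was 2.64-fold below SV129, at -1.40 (SE 0.263, limma adjusted p = 0.0252), and without the 2 kidney-bearing arrays the call did not hold (-1.36, adjusted p = 0.0636). The second probe set, 1418456_a_at, gave -1.07 (SE 0.252, limma adjusted p = 0.0613). The call for Cxcl14 held without hypoxic BL6 array 2 (-1.40, 0.0265), hypoxic SV129 array 2 (-1.08, 0.0463), hypoxic SV129 array 5 (-1.60, 0.0324) or normoxic BL6 (-1.40, 0.0242), and in none of the other 5 fits with 1 array left out (-1.56 to -1.32, adjusted p 0.0535 to 0.0927).

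Ccl6, a CC ligand abundant in mouse macrophages, read 10.07, 10.46 and 11.20 in BL6, 9.37, 9.75 and 9.81 in FVB/N and 10.90, 10.41 and 10.89 in SV129 (1420249_s_at). FVB/N was 2.13-fold below SV129, at -1.09 (SE 0.228, limma adjusted p = 0.0388), and without the 2 kidney-bearing arrays the call did not hold (-1.03, adjusted p = 0.0762). The second probe set, 1417266_at, gave -0.76 (SE 0.233, limma adjusted p = 0.142). The call for Ccl6 held without hypoxic BL6 array 2 (-1.10, 0.0331) or normoxic BL6 (-1.10, 0.0312), and in none of the other 7 fits with 1 array left out (-1.24 to -0.92, adjusted p 0.0664 to 0.128).

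Cxcl17, a mucosal chemokine of airway epithelium, read 10.68, 11.20 and 10.98 in BL6, 8.86, 10.01 and 9.04 in FVB/N and 10.51, 10.39 and 9.90 in SV129. BL6 lay above every other array. It was 3.14-fold above FVB/N, at 1.65 (SE 0.291, limma adjusted p = 0.0208), and without the 2 kidney-bearing arrays the call did not hold (1.86, adjusted p = 0.0666). The call for Cxcl17 held in 6 of 9 fits with 1 array left out, and not without hypoxic BL6 array 5 (1.57, 0.131), hypoxic FVB/N array 2 (1.35, 0.0682) or normoxic BL6 (1.49, 0.117). The mean of 8 airway epithelial markers was 11.16 to 12.56 in BL6, 9.40 to 10.61 in FVB/N and 9.73 to 10.36 in SV129, and 3 of the 8 (Scgb3a1, Muc5b and Bpifa1, secretory cell products) were higher in BL6 than in FVB/N. Alveolar macrophage markers (8 readable of 10) stood at a mean of 8.73 to 8.95 in FVB/N and of 9.67 to 10.51 in the others, with Marco, Chil3 and Mrc1 lower in FVB/N than in either strain. None of 7 readable alveolar type 2 markers passed between strains. Of 8 readable fibroblast and mesothelial markers Col1a1 and Col1a2 were lower in FVB/N than in SV129 (2.45-fold and 1.63-fold). The part of airway cells, macrophages and fibroblasts in the low FVB/N levels of Ccl6, Cxcl14, Cxcl15 and Cxcl17 was not tested.

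Some members separated the strains without passing. Ccl17, a dendritic cell ligand of Ccr4, read 7.92, 7.95 and 8.37 in BL6, 6.81, 7.32 and 7.47 in FVB/N and 7.08, 5.70 and 7.01 in SV129, highest in BL6 throughout, at 1.48 (SE 0.336, limma adjusted p = 0.058) for BL6 minus SV129. Ccl25 (1418777_at), the thymic and gut ligand of Ccr9, read 7.42, 7.54 and 6.58 in BL6, 7.61, 7.79 and 7.82 in FVB/N and 6.52, 6.91 and 6.43 in SV129, highest in FVB/N throughout, at 1.12 (SE 0.259, limma adjusted p = 0.0585) for FVB/N minus SV129. Without the kidney-bearing arrays this probe set gave 0.89 (limma adjusted p = 0.215). The second readable Ccl25 probe set, 1458277_at, gave -0.19 there (limma adjusted p = 0.852), opposite in sign. Ackr3 read 10.19, 10.57 and 10.61 in BL6, 10.93, 11.54 and 10.98 in FVB/N and 10.69, 10.57 and 10.92 in SV129, also highest in FVB/N throughout, at -0.69 (SE 0.209, limma adjusted p = 0.174) for BL6 minus FVB/N. The B cell receptor Cxcr5 read 8.19, 8.12 and 7.80 in BL6, 7.37, 7.97 and 7.83 in FVB/N and 7.19, 6.10 and 6.94 in SV129, lowest in SV129 throughout, at 1.29 (SE 0.313, limma adjusted p = 0.0723) for BL6 minus SV129. Ccr1, a receptor of neutrophils and monocytes, read 7.29, 7.32 and 8.24 in BL6, 8.57, 9.17 and 8.23 in FVB/N and 7.75, 7.46 and 7.57 in SV129, and BL6 and FVB/N overlapped, at -1.04 (SE 0.323, limma adjusted p = 0.191).

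Within single strains hypoxia was compared with 1 normoxic array each, in a fit with all 6 groups. Of the 61 probe sets none passed in BL6 (0.0148% of all tested did) and none in SV129 (0% of all). In each, 9 of the 61 had unadjusted p under 0.05, again without a count over all tested. In FVB/N 7 passed (11.5%; 6.8% of all tested), 5 higher and 2 lower (2.95% and 3.85% of all). All 7 rest on the normoxic FVB/N array that carried kidney and muscle transcripts. No fit without that array could be made, and the part of those transcripts was not tested. Leaving out either hypoxic FVB/N array kept the direction of all 7, at 0.63 to 2.61 for the 5 higher and -5.12 to -1.01 for the 2 lower, and ended all 7 calls (adjusted p 0.137 to 0.185). In the same comparison 3 of 10 readable endothelial markers were higher (Tek, Emcn and Cldn5, 2.03-fold to 2.85-fold). Also higher were Pdgfra and Tcf21, 2 of 8 fibroblast and mesothelial markers. Sftpd (1 of 7 alveolar type 2 markers) and Hopx (1 of 6 of type 1) were higher. So were Cd8b1 (1 of 12 T and NK cell markers), Cd79b and Fcer2a (2 of 7 of B and plasma cells) and Zbtb46 (1 of 6 dendritic). Marco (1 of 8 alveolar macrophage markers) and 3 of 7 neutrophil markers were lower. The median difference was 1.02 over the endothelial and 0.85 over the fibroblast and mesothelial markers, against 0.13 over all genes. It was 0.79 for T and NK cells, 0.56 for B and plasma cells, 0.35 for dendritic cells, 0.17 for neutrophils and -0.04 for alveolar macrophages. The part of these cells in the 7 calls was not tested.

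Cxcr2, the neutrophil receptor for Cxcl1 and Cxcl2, read 6.31 and 6.42 in hypoxic BL6, 8.24 and 8.68 in hypoxic FVB/N, 5.76 and 6.30 in hypoxic SV129, and 6.41, 6.06 and 6.40 in normoxic BL6, FVB/N and SV129. Hypoxic FVB/N stood apart from all 7 other arrays. Those 7 read 5.76 to 6.42, and among them normoxic FVB/N (6.06) and hypoxic SV129 array 2 (5.76) lay under the limit for reading. The fold and the strain differences of Cxcr2 given next are therefore over levels near background. The difference in FVB/N was 2.40 (SE 0.405, limma adjusted p = 0.028), 5.27-fold. Between the hypoxic arrays alone, which leave normoxic FVB/N out, FVB/N minus SV129 was 2.46 (SE 0.323, limma adjusted p = 0.0118) and BL6 minus FVB/N -2.12 (SE 0.323, adjusted p = 0.024). Over all 9 arrays neither strain difference passed, at 1.51 (SE 0.529, limma adjusted p = 0.202) and -1.28 (SE 0.529, limma adjusted p = 0.371), and without the 2 kidney-bearing arrays both did (2.39, adjusted p = 0.00862, and -2.16, adjusted p = 0.0331). Of 7 readable neutrophil markers, S100a8 read 12.58 and 13.47 in hypoxic FVB/N against 9.44 to 10.72 on the other hypoxic arrays, and the neutrophil receptor Csf3r 9.51 and 9.98 against 7.89 to 8.66. Both were also high in normoxic FVB/N, at 12.86 and 9.55. By strain, S100a8 was 5.07-fold and S100a9 6.50-fold higher in FVB/N than in SV129, Csf3r was 2.99-fold lower in BL6 than in FVB/N, and Lcn2 was 2.94-fold higher in BL6 than in FVB/N. The granule genes Ngp, Ltf and Camp fell with hypoxia in FVB/N. The part of neutrophils in the Cxcr2 result was not tested.

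Ccl28, a mucosal ligand of Ccr3 and Ccr10 made by exocrine epithelium, read 11.48 in normoxic FVB/N and 5.76 to 6.85 in the other 8. The difference in FVB/N was -5.02 (SE 0.397, limma adjusted p = 0.0212), 32.4-fold lower in hypoxia. The 2 dim Ccl28 probe sets, 1450217_at and 1450218_at, were likewise high in that array only (8.72 and 8.83, against at most 5.50 elsewhere). Hypoxic BL6 array 2, the other kidney-bearing array, read 6.85. The part of the kidney and muscle transcripts in the Ccl28 result was not tested.

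Cxcl12 1448823_at read 11.38 and 11.00 in hypoxic BL6, 10.28 and 10.39 in hypoxic FVB/N, 11.04 and 10.95 in hypoxic SV129, and 10.80, 11.40 and 10.63 in normoxic BL6, FVB/N and SV129. It fell in FVB/N, at -1.07 (SE 0.229, limma adjusted p = 0.0412), while 1417574_at did not pass in that strain, at 0.28 (SE 0.165, limma adjusted p = 0.337), so the probe sets of this gene differed in sign there. In BL6 and SV129 1448823_at was higher in hypoxia than in normoxia, without passing (0.39 and 0.37), as was 1417574_at (1.32 and 0.75, adjusted p = 0.068 and 0.412).

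**Figure D4:**
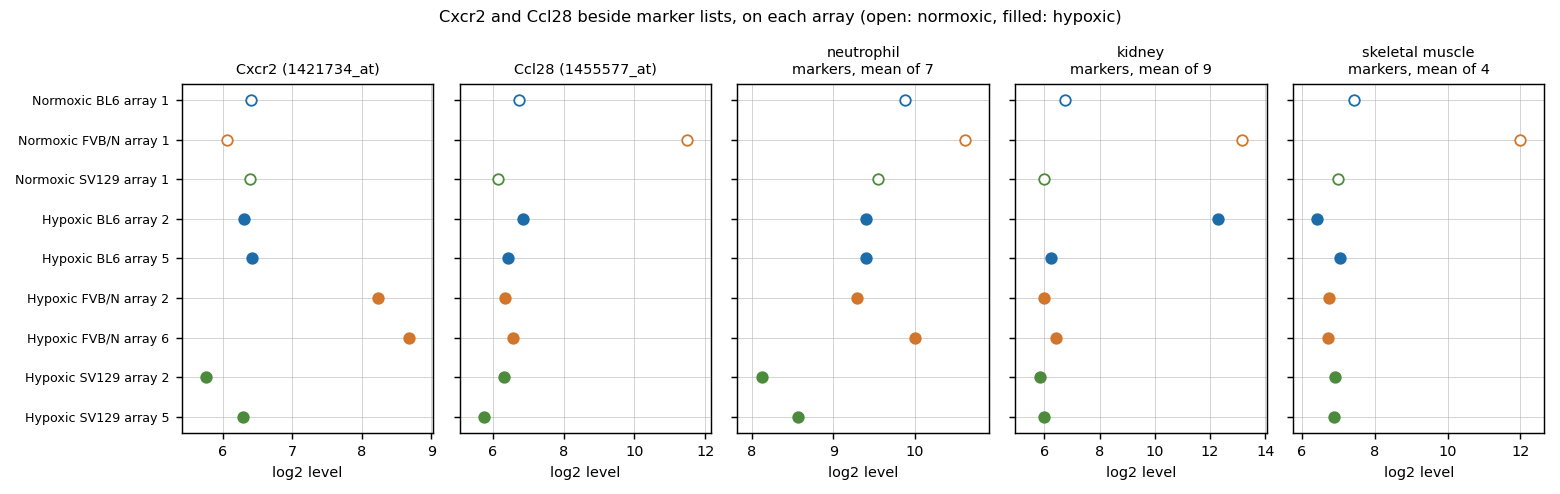
Log2 level of Cxcr2 and Ccl28 on each array (open normoxic, filled hypoxic), beside the mean level of 7 neutrophil, 9 kidney and 4 skeletal muscle marker genes. Cxcr2 is high in the 2 hypoxic FVB/N arrays (8.24 and 8.68) and Ccl28 in normoxic FVB/N (11.48), where kidney (13.17) and muscle markers (11.99) are also high.

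The other probe sets higher in hypoxic than in normoxic FVB/N were of Ackr2, Cxcl15 and Cxcl16. Ackr2 1422112_at differed by 1.28 (SE 0.244, limma adjusted p = 0.0327), 1437937_at by 0.96 (SE 0.205, limma adjusted p = 0.0411) and Cxcl15 1456428_at by 0.77 (SE 0.151, limma adjusted p = 0.0339). Cxcl16, the anchored ligand of Cxcr6, read 10.50 and 10.54 in hypoxic BL6, 10.54 and 10.62 in hypoxic FVB/N, 10.17 and 10.27 in hypoxic SV129, and 10.04, 9.63 and 9.93 in normoxic BL6, FVB/N and SV129 (1418718_at). It was above its own normoxic array in 6 of 6 cases, with 0.96 (SE 0.212, limma adjusted p = 0.0435) in FVB/N and 0.57 (SE 0.149, limma adjusted p = 0.0681) across strains. Besides the hypoxic FVB/N arrays, leaving out a hypoxic BL6 array ended some of these calls: Ackr2 1422112_at without hypoxic BL6 array 2 (1.28, 0.0526); Ackr2 1437937_at without hypoxic BL6 array 2 (0.96, 0.0632) or hypoxic BL6 array 5 (0.96, 0.0604); Cxcl16 without hypoxic BL6 array 2 (0.96, 0.0864) or hypoxic BL6 array 5 (0.96, 0.0833). The same was so of the lower Cxcl12 1448823_at, without hypoxic BL6 array 2 (-1.07, 0.052).

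Whether the response to hypoxia differed by strain was tested as an interaction. None of the 61 probe sets passed by limma, and 0% of all tested passed. Unadjusted p was under 0.05 for 10 of the 61, again without a count over all tested. The smallest unadjusted p was that of Ccl28 (4.11e-05, adjusted 0.208), and Cxcr2 had an adjusted p of 0.213. Calls in FVB/N alone therefore do not show that the strains differed.

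**Figure D5:**
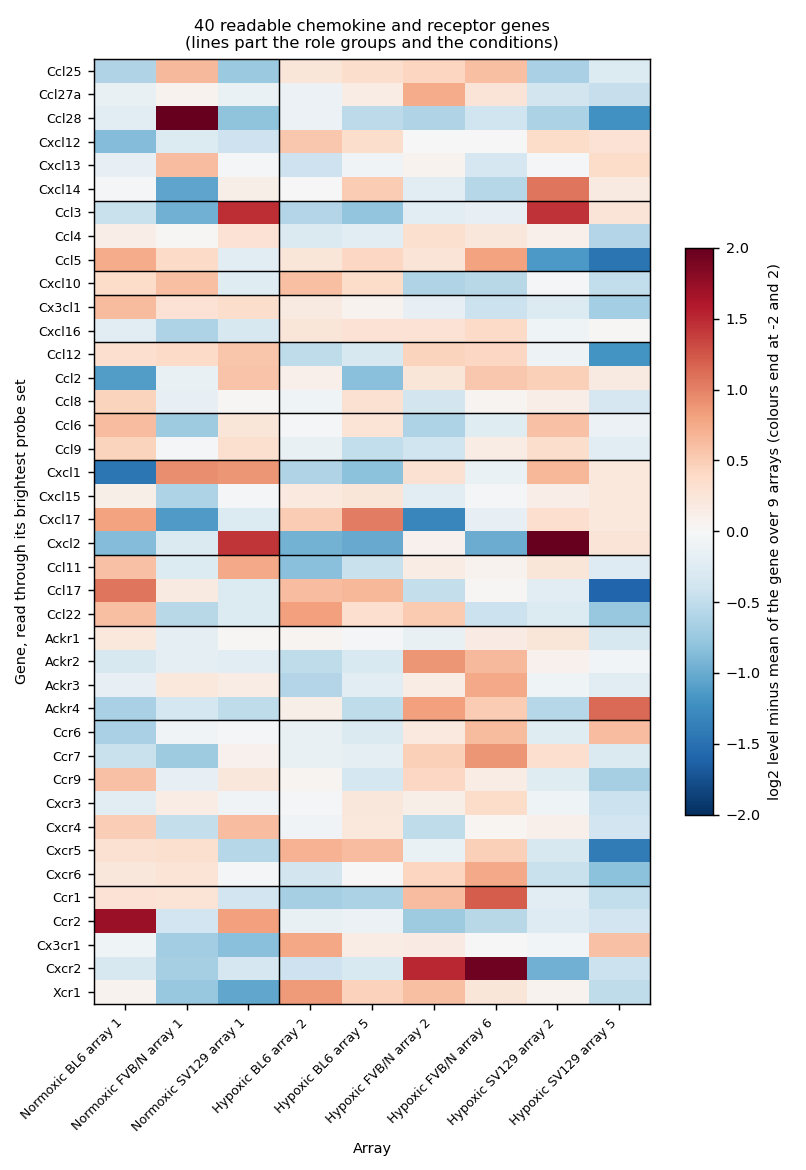
Log2 level minus the gene's mean over the 9 arrays for the 40 readable genes, each through its brightest probe set, with genes in rows by role and arrays in columns (normoxic left of the line, hypoxic right). Colours end at -2 and 2: Ccl28 in normoxic FVB/N and Cxcl2 in hypoxic SV129 array 2 reach the end in red, and Cxcl12 is blue in all 3 normoxic arrays.

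The remaining readable genes did not pass in hypoxia. Among monocyte attractants Ccl2, Ccl8 and Ccl12 differed by 0.35, -0.15 and -0.63, and among eosinophil and type 2 ligands Ccl11, Ccl17 and Ccl22 by -0.53, -0.49 and 0.11. The interferon-induced T cell attractant Cxcl10 read 7.26 and 7.03 in hypoxic BL6, 6.06 and 6.11 in hypoxic FVB/N, 6.64 and 6.17 in hypoxic SV129, and 7.03, 7.26 and 6.42 in normoxic BL6, FVB/N and SV129 and differed by -0.36 across strains, and its receptor Cxcr3 by 0.08. Cxcl13, which organises B cell follicles, differed by -0.21 (1417851_at) and -0.51 (1448859_at), and the venular and red cell receptor Ackr1 by -0.03. No probe set of the lymphocyte receptors Ccr6, Ccr7, Ccr9, Cxcr3, Cxcr4, Cxcr5 and Cxcr6 passed in any of the comparisons as first fitted. With hypoxia in FVB/N Ccr7 differed by 1.38 (SE 0.336, limma adjusted p = 0.0524), and it passed there under 7 of the alternative settings (adjusted p 0.0259 to 0.0495), among them median centring, the deposited scaling alone and array weights. With array weights Ccr7 passed for BL6 minus FVB/N at -0.80 (adjusted p = 0.0426), Cxcr5 for BL6 minus SV129 at 1.33 (adjusted p = 0.0486) and Cxcr6 for FVB/N minus SV129 at 1.19 (adjusted p = 0.0486). The array weights fit stopped before full convergence for some probe sets. Cxcr6 also passed without normoxic FVB/N, at 1.21 (adjusted p = 0.0472).

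Other genes of the pathway were read through the brightest probe set of each. Of 7 chemokines and near relatives outside the name rule, Cklf rose in hypoxia across strains (1.84-fold, limma adjusted p = 0.0337). The platelet chemokine Ppbp (Cxcl7) was 13.4-fold higher in BL6 than in SV129 (adjusted p = 0.000169) and 22.1-fold higher in FVB/N than in SV129 (adjusted p = 6.11e-05). Pf4, also of platelets, was 2.58-fold higher in FVB/N than in SV129 (adjusted p = 0.0108). Of 22 signalling genes below the receptors 0 passed in hypoxia across strains, and their median was 0.19 against 0.03 over 12895 genes. Between strains, 3 regulators that end G-protein signals, Rgs1, Rgs2 and Rgs5, were lower in BL6 than in SV129 (2.53-fold, 2.58-fold and 2.98-fold), and Rgs5, known from pericytes, also than in FVB/N (2.51-fold). Of 5 proteases that cut chemokines, Mmp2, which cleaves Cxcl12, rose in hypoxia across strains (1.55-fold, adjusted p = 0.0349). Of 8 readable inducers of chemokine genes Il6 alone passed between strains, as given above. Within FVB/N, hypoxia raised Elmo1 of the signalling genes (2.40-fold, limma adjusted p = 0.0415) and Ccrl2 of the near relatives (2.34-fold, 0.0301). Irf1 of the inducers (2.33-fold, 0.0336) and Mmp2 (1.84-fold, 0.0446) were also higher there. In that comparison 6.8% of all tested probe sets passed, and it rests on the normoxic array with kidney and muscle transcripts.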

How the data were processed

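Deposited values were linear intensity per probe set, 1 table for all arrays, which the authors had scaled to a trimmed mean of 500 on each array, as the values show (2% trimmed at each end). The sources used here do not name the software. Another 12 arrays that the submitters mention were not analysed here. Groups come from the sample titles and genes from the platform annotation, with all 54 symbols matched to the current gene table.

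After 64 control probe sets were left out, log2(signal + 16) was quantile normalized, and the dimmest 40% by mean over the 9 arrays were dropped, leaving 27022. Array medians before this ran from 6.76 to 6.99. Fold changes are on the log2(signal + 16) scale and understate those of dim probe sets. Tests were limma 3.58.1 (R 4.3.3) with an intensity trend, on strain plus condition (5 residual degrees of freedom) or on 6 groups (3), Benjamini-Hochberg adjusted over all tested, threshold 0.05. The script was tested on simulated data. Precision is limited by how few arrays there are.

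The members and gene lists were chosen with earlier results of these data known. Named members are those past the threshold, the 6 brightest ligands and 6 brightest receptors and, per comparison, the 5 largest changes by gene; further ones, such as Cxcr5 and the additional probe sets of named genes, were named after their values were seen. Alternatives were other scalings, pseudocounts, filters and variance models, the brightest probe set per gene, a block by array number, and arrays left out.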

Additional observations from a re-analysis of the deposited data

Results flagged for a closer look

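In 10 of 35 named probe sets, strains ran opposite ways. Every hypoxic array of 1 strain lay above its normoxic array, and every one of another strain lay below its own. The count was not made over all tested probe sets, and some of the 35 were named for large changes. So 10 is not read as many or few. The values are mean log2 differences of hypoxic minus normoxic, with limma's adjusted p for the interaction of strain and condition. Ccl11 1417789_at differed by -1.23 in BL6, 0.38 in FVB/N and -0.76 in SV129 (interaction adjusted p = 0.415). Ccl12 1419282_at differed by -0.75 in BL6, 0.050 in FVB/N and -1.20 in SV129 (interaction adjusted p = 0.726). Ccl25 1418777_at differed by 0.90 in BL6, -0.13 in FVB/N and 0.29 in SV129 (interaction adjusted p = 0.607). Ccl3 1419561_at differed by -0.24 in BL6, 0.77 in FVB/N and -0.63 in SV129 (interaction adjusted p = 0.662). Ccl6 1417266_at differed by -0.50 in BL6 and 0.28 in FVB/N (interaction adjusted p = 0.719). Ccr1 1419609_at differed by -0.94 in BL6 and 0.64 in FVB/N (interaction adjusted p = 0.358). Cxcl1 1457644_s_at differed by 0.73 in BL6, -0.84 in FVB/N and -0.44 in SV129 (interaction adjusted p = 0.326). Cxcl10 1418930_at differed by 0.12 in BL6 and -1.18 in FVB/N (interaction adjusted p = 0.486). Cxcl12 1448823_at differed by 0.39 in BL6, -1.07 in FVB/N and 0.37 in SV129 (interaction adjusted p = 0.214). Cxcr2 1421734_at differed by 2.40 in FVB/N and -0.36 in SV129 (interaction adjusted p = 0.213). None of these differences between strains passed. Some of the levels behind them were near background. The BL6 and FVB/N means of Ccl3 lay under the limit for reading, so its directions there are not read, although it is counted in the 10. For Cxcr2, normoxic FVB/N and hypoxic SV129 array 2 lay under that limit. Both hypoxic FVB/N arrays of Cxcl10 did as well. Each strain has a single normoxic array, and that of FVB/N carried kidney and muscle transcripts, whose part was not tested. Over the 6 hypoxic arrays taken as 1 group, 0 of 35 named probe sets had an array that stood apart by Dixon's test. Strains were pooled, so 2 arrays of a strain that stand apart together, as for Cxcr2 in FVB/N, are not found. The normoxic arrays were not tested this way.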

How the results depend on the processing

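Over 21 alternatives, 26 calls of a probe set in a comparison gave 487 further values: 320 kept their direction and stayed past the threshold, 167 kept their direction and no longer passed, and 0 turned. For hypoxia across strains the count of 4 probe sets became 7 with median centring, 1 without the filter, 1 without the intensity trend, 0 with the brightest probe sets only and 2 with the kidney-bearing pair left out; the 7 added Cxcl16, Cx3cr1 and the second Cxcl15 probe set. Median centring moved the median of all probe sets for hypoxia in BL6 by 0.11, where nothing was called. Array weights gave 22 for strain (9 before), 16 for BL6 against FVB/N (3), 2 for hypoxia in BL6 (0) and 11 for hypoxia in FVB/N (7, and 1 without the trend). That fit stopped before full convergence for some probe sets. Shares of all tested probe sets are not given beside the counts under alternatives, here and below. A changed count is therefore not read as particular to the members. The brightest probe sets gave 2 for strain and 1 for each pair. With the dimmest 60% left out BL6 against SV129 gave 3, and with a pseudocount of 64 the interaction gave 1. With the array number as a replicate block in place of condition, strain gave 2, BL6 against SV129 1 and FVB/N against SV129 1. Number 1 is that of all normoxic arrays, so this block holds condition too. Differences between the hypoxic arrays of a strain correlated at -0.042 for BL6 and SV129, which share both numbers. They correlated at -0.026 (BL6) and -0.188 (SV129) with those of FVB/N, which shares only number 2. Whether the numbers pair the arrays cannot be told from this.

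Leaving out each array in turn gave 0 to 3 calls for hypoxia, 4 to 12 for strain, 0 to 8 for BL6 against FVB/N, 1 to 9 for BL6 against SV129, 2 to 9 for FVB/N against SV129, 0 to 1 for the interaction, 0 to 2 for hypoxia in BL6, 0 to 12 for hypoxia in FVB/N and 0 in each fit for hypoxia in SV129. Hypoxia within a strain could not be fitted without its normoxic array. The cause of these moves was not tested, beyond fewer arrays or fewer probe sets where they were left out. Without detection calls, what is too dim to read rests on the filter alone.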
